A study of Rattus norvegicus with 12 samples.

Results

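Syndecans and glypicans, the main heparan sulfate proteoglycans of the cell surface, were followed through 3 zones of young rat cartilage. The 4 syndecans (Sdc1, Sdc2, Sdc3 and Sdc4) and 5 of the glypicans (Gpc1, Gpc2, Gpc3, Gpc4 and Gpc6) were listed by gene symbol. Of these 9 symbols, 7 were each paired with 1 transcript cluster (the set of probes that reads 1 gene on the array), out of 14300 genes named in all, and Gpc1 and Gpc6 were not analysed here. All animals were Sprague-Dawley rats, 10 days old, with no treatment or mutation named, an age at which a bony centre has begun to divide the end of the tibia into articular and growth plate cartilage. Microdissected tissue from the proximal tibial epiphysis of 8 rats gave 4 samples of the superficial zone of articular cartilage (SZ), 4 of its intermediate/deep zone (IDZ) and 4 of the growth plate resting zone (RZ), each hybridised to its own whole-transcript array. An SZ sample held the tissue of both tibias of 1 animal, whereas each IDZ and each RZ sample pooled 2 animals, and the same number in IDZ and RZ stood for the same animals. The animals of the SZ samples were also among those pooled for IDZ and RZ, so the zones are not from separate animals.

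Syndecans cross the plasma membrane and reach the cytoskeleton through short cytoplasmic tails, while glypicans are held to the outer face of the membrane by a lipid (GPI) anchor. Both carry heparan sulfate, a sulfated sugar chain that binds growth factors and morphogens such as fibroblast growth factors, Wnts, hedgehogs and bone morphogenetic proteins and alters how far they spread and how they meet their receptors. In cartilage the chains are known for shaping hedgehog and fibroblast growth factor signalling to chondrocytes, and loss of a chain polymerase gene (EXT1 or EXT2) in people causes cartilage-capped bony outgrowths. The comparisons below asked in which zone each core protein gene was more highly expressed and whether the genes that build, trim and release the chains and cores differed along with them.

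Values are log2 expression, so a difference of 1 is 2-fold, and levels of different genes were not compared because probes differ in brightness. A gene was called higher in a zone when the adjusted p (limma, Benjamini-Hochberg over 27342 clusters) was under 0.05. Sample number limits the precision, and the p-values measure the spread between these samples. The 3 comparisons share arrays, so they are not independent of each other.

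The markers set SZ apart from the other zones, but those of the resting zone were divided between IDZ and RZ. All 3 resting zone markers measured were lower in SZ than in IDZ and RZ. Sfrp5 and Efemp1 were higher in RZ than in IDZ, whereas Grem1 was higher in IDZ. Of 9 cartilage matrix genes measured, 8 were higher in IDZ than in SZ, and 0 were called between IDZ and RZ. The mean level of the 9 genes ranged over 11.77 to 12.13 in SZ, 12.87 to 12.94 in IDZ and 12.82 to 12.98 in RZ. Acan, the core protein of aggrecan, averaged 12.65 in SZ, 13.29 in IDZ and 13.37 in RZ, and Prg4, the lubricin of the joint surface, averaged 12.78, 10.31 and 5.68. Markers of several other cell types were also higher in SZ. All 6 endothelial markers measured were higher in SZ than in IDZ (mean level 9.28 to 9.96 in SZ, 6.42 to 7.10 in IDZ and 6.18 to 6.59 in RZ), as were all 8 macrophage markers (8.69 to 9.66, 6.94 to 7.07 and 6.59 to 7.34), all 5 pericyte markers (9.52 to 10.04, 7.15 to 7.71 and 6.97 to 7.19) and all 10 fibrous and tendon markers (10.48 to 11.04, 7.72 to 8.33 and 6.49 to 6.96). Of 2 erythroid, 4 striated muscle and 5 epithelial and plasma cell markers measured, 0 were higher in SZ than in IDZ. Of 3 nerve markers measured, 1 was higher and 1 lower in SZ. Whether SZ held more cells of any of these types was not tested. SZ replicate 4 stood apart, with an interquartile range of 2.235 against 2.495 to 2.907 on the other arrays and a highest correlation with any other array of 0.9806 against 0.9919 to 0.9947. It was the lowest SZ array for 6 of the 7 measured members and the highest for 1 (Gpc2), so results that rest on it are given with and without it.

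The 7 measured genes did not share 1 zonal pattern. Between SZ and RZ, 4 favoured SZ (Sdc1, Sdc2, Gpc3 and Gpc4) and 2 favoured RZ (Sdc3 and Sdc4), beside 14.5% and 12.2% of all genes in those directions, with Gpc4 the call toward SZ that was lost under several alternatives. Between SZ and IDZ, 1 was higher in SZ (Gpc3) and 2 higher in IDZ (Sdc3 and Sdc4), beside 17% and 9.56% of all genes. After centring on the 75th percentile or a second quantile normalization the split was 2 and 2, with Sdc1 added toward SZ. Between IDZ and RZ, 0 were higher in IDZ and 1 was higher in RZ (Gpc3), beside 3.22% and 5.58% of all genes. At an unadjusted p under 0.05, 2 of the 7, Sdc1 and Sdc2, were higher in IDZ than in RZ, beside 8.24% of all genes. The median SZ minus RZ difference of the members was 0.31 against -0.01 over all genes, the median SZ minus IDZ difference 0.10 against -0.03, and the median IDZ minus RZ difference -0.10 against 0.01.

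**Figure D1:**
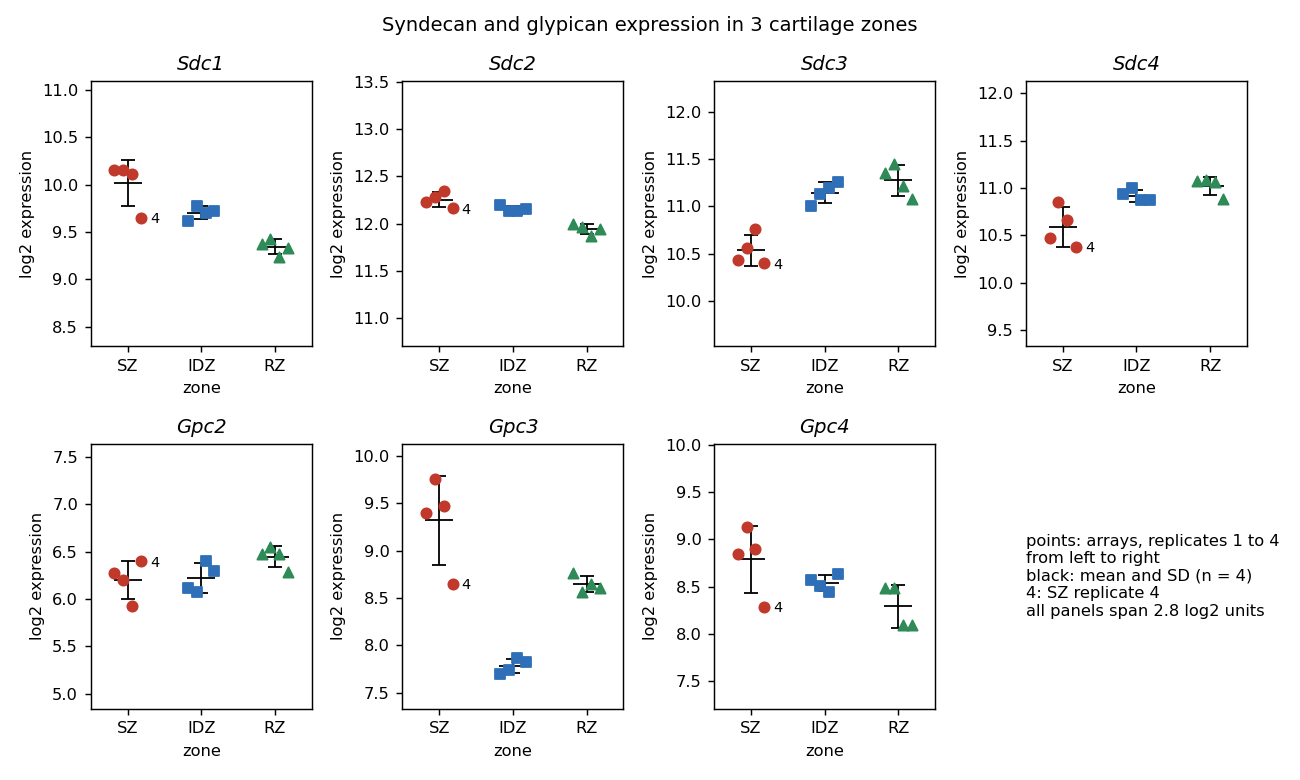
Log2 expression of each measured syndecan and glypican on every array (points) by zone (SZ, IDZ, RZ), with the zone mean as a bar and the SD of 4 arrays as the error bar. Sdc1 and Sdc2 have their highest means in SZ and their lowest in RZ, Sdc3 and Sdc4 the reverse, and Gpc3 is lowest in IDZ, where its 4 arrays lie between 7.70 and 7.87.

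Sdc1 encodes syndecan-1, best known on epithelial and plasma cells and in wound repair. It read 10.15, 10.15, 10.11 and 9.65 on SZ replicates 1 to 4, 9.62, 9.78, 9.70 and 9.72 on the IDZ arrays, and 9.37, 9.43, 9.24 and 9.33 on the RZ arrays. Every SZ and every IDZ array was above every RZ array, while SZ replicate 4 fell among the IDZ arrays. Sdc1 was 1.59-fold higher in SZ (10.02 ± 0.25, SD, n = 4) than in RZ (9.34 ± 0.08), a log2 difference of 0.67 (SE 0.11, adjusted p = 0.00035 by limma). IDZ (9.70 ± 0.06) lay between. Its differences from SZ (0.31, SE 0.11, limma adjusted p = 0.059) and from RZ (0.36, SE 0.11, limma adjusted p = 0.071) were not called. Without SZ replicate 4 both neighbouring steps passed, at 0.43 (limma adjusted p = 0.00041) and 0.36 (limma adjusted p = 0.003). In a fit of IDZ and RZ alone the step between them was 0.36, with a limma adjusted p of 0.0057 without pairing and 0.013 with samples of the same animals paired. It was not called with animal pairs as a random block over all 12 arrays (limma adjusted p = 0.11). That block had a negative correlation (-0.141), which widens the error of a difference within pairs. IDZ was the higher in 4 of 4 pairs of samples, by 0.25, 0.35, 0.46 and 0.39. Syndecan-1 is best known in epithelium and plasma cells. The mean level of 5 measured markers of these cells was 5.15 to 5.53 in SZ and 5.54 to 5.80 in RZ. Of the 5, 0 were higher in SZ than in RZ and 1 (Krt8) was higher in RZ. Epcam, Jchain, Cdh1 and Krt18 averaged 6.11 or less in every zone, below 6.81, the median of all values. Markers this dim can hardly show such cells, and the part of these cells was not tested. The endothelial, macrophage and fibrous markers were higher in SZ, as Sdc1 was, and their part in its difference was not tested. In tissue samples of this kind, fewer cells of a type and less RNA per cell cannot be told apart.

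Sdc2, which encodes syndecan-2 (fibroglycan), a syndecan of mesenchymal cells, took the same order as Sdc1 over a narrower range. It read 12.23, 12.28, 12.34 and 12.16 in SZ, 12.20, 12.13, 12.13 and 12.15 in IDZ, and 11.96, 11.87 and 11.94 on RZ replicates 2 to 4. RZ replicate 1 was the highest RZ array, 0.20 below the IDZ array of the same animals. The RZ arrays were all below the others, whereas the SZ and IDZ arrays overlapped. Sdc2 was 1.24-fold higher in SZ (12.25 ± 0.08) than in RZ (11.94 ± 0.05), a difference of 0.31 (SE 0.08, limma adjusted p = 0.0097). The SZ minus IDZ difference was 0.10 with a 95% confidence interval from -0.07 to 0.27 (limma adjusted p = 0.41). The IDZ minus RZ difference was 0.21 (0.04 to 0.38, limma adjusted p = 0.15). The latter became a call without SZ replicate 4 (0.21, limma adjusted p = 0.048), and IDZ was the higher in 4 of 4 animal-matched samples, by 0.17 to 0.26. Over the 12 arrays Sdc2 correlated with Sdc1 at a Pearson r of 0.93, a description in which the arrays share their zones.

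Sdc3 showed the reverse order. It encodes syndecan-3, which in chick and mouse limbs is known from proliferating chondrocytes. Its values were 10.43, 10.56, 10.76 and 10.40 in SZ, 11.00, 11.13, 11.19 and 11.26 in IDZ, and 11.35, 11.45, 11.22 and 11.08 in RZ. All SZ arrays lay below all IDZ and RZ arrays, and the latter overlapped. Expression was 1.52-fold higher in IDZ (11.14 ± 0.11) than in SZ (10.54 ± 0.16), a difference of 0.60 (SE 0.11, limma adjusted p = 0.00072), and 1.66-fold higher in RZ (11.27 ± 0.16) than in SZ, a difference of 0.74 (SE 0.11, limma adjusted p = 0.00011). IDZ and RZ were not separated (IDZ minus RZ -0.13, SE 0.11, limma adjusted p = 0.58), and RZ was the higher in 3 of 4 animal-matched samples. Both calls held when any 1 of the 12 arrays was left out, with differences of 0.56 to 0.68 between IDZ and SZ and 0.68 to 0.81 between RZ and SZ. The cartilage matrix markers were lower in SZ as well, and their part was not tested.

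Sdc4, for syndecan-4, a partner of integrins at focal adhesions, ran with Sdc3 over a smaller range. It read 10.47, 10.85, 10.66 and 10.38 in SZ, 10.94, 11.00, 10.87 and 10.87 in IDZ, and 11.07, 11.08, 11.06 and 10.88 in RZ. SZ again lay below the other zones without overlap. Sdc4 was 1.35-fold higher in RZ (11.02 ± 0.09) than in SZ (10.59 ± 0.21), a difference of 0.43 (SE 0.10, limma adjusted p = 0.0071), and 1.25-fold higher in IDZ (10.92 ± 0.06) than in SZ, a difference of 0.33 (SE 0.10, limma adjusted p = 0.035). The IDZ call was lost when SZ replicate 1 was left out (limma adjusted p = 0.1) or any 1 of the IDZ arrays (limma adjusted p = 0.053 to 0.097), whereas the RZ call held on leaving out any array. IDZ minus RZ was -0.10 (SE 0.10, limma adjusted p = 0.66), with RZ the higher in 4 of 4 animal-matched samples, by as little as 0.01 and at most 0.19. Over the 12 arrays, Sdc3 and Sdc4 correlated at a Pearson r of 0.88.

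The opposite courses of the syndecans can be read within each array, where a factor common to all genes of the array cancels. A difference in spread, such as that of SZ replicate 4, does not cancel. The log2 ratio of Sdc1 to Sdc4 was -0.73 to -0.32 in SZ, -1.32 to -1.15 in IDZ and -1.82 to -1.55 in RZ, so the zones did not overlap. The ratio of Sdc1 to Sdc3 likewise went from -0.75 to -0.28 in SZ, through -1.54 to -1.35 in IDZ, to -2.01 to -1.75 in RZ. SZ replicate 4 was the lowest SZ array in both ratios and still above every IDZ array. These pairs were chosen after the values were seen, and only the shift between zones is interpretable.

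The sequence just before the start of each of 3 syndecan genes is given so that the genes on either side of this split can be read side by side. The 250 bases come from RefSeq on rat assembly GRCr8, and capitals mark GC boxes (GGGCGG on either strand), the site class of SP1-type factors.
Sdc1, chr6:37281791-37282040, plus strand: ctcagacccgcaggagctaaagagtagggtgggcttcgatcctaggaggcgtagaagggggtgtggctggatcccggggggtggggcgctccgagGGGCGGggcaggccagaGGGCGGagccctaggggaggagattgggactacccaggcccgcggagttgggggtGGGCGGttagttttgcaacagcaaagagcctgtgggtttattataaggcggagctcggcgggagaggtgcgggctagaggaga
Sdc3, chr5:148249542-148249791, plus strand: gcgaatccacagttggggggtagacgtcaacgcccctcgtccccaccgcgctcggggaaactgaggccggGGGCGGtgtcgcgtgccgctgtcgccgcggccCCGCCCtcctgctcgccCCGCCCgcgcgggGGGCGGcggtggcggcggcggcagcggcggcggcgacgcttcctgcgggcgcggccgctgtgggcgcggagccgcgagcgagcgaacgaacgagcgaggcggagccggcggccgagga
Sdc4, chr3:173592924-173593173, minus strand: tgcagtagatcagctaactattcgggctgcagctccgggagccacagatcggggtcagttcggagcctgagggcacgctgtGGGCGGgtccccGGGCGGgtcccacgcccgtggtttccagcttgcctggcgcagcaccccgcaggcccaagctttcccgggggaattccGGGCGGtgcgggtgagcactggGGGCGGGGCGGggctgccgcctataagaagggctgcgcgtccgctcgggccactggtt
The Sdc1 window held 3 GC boxes, the Sdc3 window 4 and the Sdc4 window 5, counting a pair that overlaps by 1 letter, and 30.5% of 33469 rat promoter windows of the same length held at least 1. G and C made up 65.2%, 80% and 70% of the letters, against a median of 51.2% over all windows. A TATA box, in the exact spelling TATAAA, was in none of the 3 on either strand and in 12.9% of all windows. Near spellings, such as the TATAAG in the Sdc1 and Sdc4 windows, were not counted. The AP-1 motif, spelled TGANTCA, was in none of them and in 6.34% of all windows, and a SOX motif, spelled AACAAT, in none of them and in 10.3%. Promoter windows were matched for 6 of the 7 measured members. Sdc2 was the member with no window.

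Gpc3 gave the largest difference among the members and the only pattern with its minimum in the middle zone. Glypican-3 restrains hedgehog signalling in the mouse, and its loss in people causes the Simpson-Golabi-Behmel overgrowth syndrome. Gpc3 read 9.40, 9.76, 9.47 and 8.65 in SZ, 7.70, 7.74, 7.87 and 7.82 in IDZ, and 8.76, 8.56, 8.65 and 8.61 in RZ. The IDZ arrays were below all others, and SZ replicate 4 alone lay within the RZ range. Expression was 2.9-fold higher in SZ (9.32 ± 0.47) than in IDZ (7.78 ± 0.08), a difference of 1.54 (SE 0.17, limma adjusted p = 9.3e-06). It was 1.82-fold higher in RZ (8.64 ± 0.09) than in IDZ, a difference of 0.86 (SE 0.17, limma adjusted p = 0.0061), and RZ was the higher in 4 of 4 animal-matched samples, by 0.77 to 1.07. SZ was 1.6-fold above RZ, by 0.67 (SE 0.17, limma adjusted p = 0.01). Without SZ replicate 4 the difference from IDZ was 1.76 and that from RZ 0.90 (limma adjusted p = 6e-09 and 4e-06). All 3 calls held when any 1 of the 12 arrays was left out.

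Marker lists were set beside the Gpc3 step between IDZ and RZ. Of the 6 endothelial, 8 macrophage, 5 pericyte and 10 fibrous markers measured, 0, 0, 1 and 5 were higher in IDZ than in RZ, and 0 of each list were higher in RZ. Of 5 hypertrophic markers measured, 0 were higher in IDZ and 2 higher in RZ, the same direction as Gpc3. They were Alpl, an alkaline phosphatase (1.59, SE 0.10), and Ibsp, a bone sialoprotein (1.55, SE 0.39), with limma adjusted p of 1.5e-07 and 0.028, and their part was not tested. The others were not called, with IDZ minus RZ of -0.49 for Col10a1, -0.09 for Ihh and 0.74 for Mmp13. The mean level of the hypertrophic list was 8.15 to 8.88 in SZ, 7.76 to 8.31 in IDZ and 8.16 to 9.09 in RZ. Of 3 resting zone markers, 2 (Sfrp5 and Efemp1) were higher in RZ than in IDZ and 1 (Grem1) was higher in IDZ. Between SZ and IDZ the endothelial, macrophage, pericyte and fibrous markers moved with Gpc3, and their part in that difference was not tested. Gpc3 was the only member that passed the stricter threshold of at least 2-fold, met only between SZ and IDZ, where 4.57% of all genes passed it toward SZ and 1.01% toward IDZ. No member passed it between IDZ and RZ, where 0.706% of genes did toward IDZ and 0.524% toward RZ, or between SZ and RZ, where 4.92% did toward SZ and 1.75% toward RZ.

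The start of Gpc3, a gene on the X chromosome, is shown in the same form, with GC boxes in capitals (CCGCCC is the same box read on the other strand).
Gpc3, chrX:137157599-137157848, minus strand: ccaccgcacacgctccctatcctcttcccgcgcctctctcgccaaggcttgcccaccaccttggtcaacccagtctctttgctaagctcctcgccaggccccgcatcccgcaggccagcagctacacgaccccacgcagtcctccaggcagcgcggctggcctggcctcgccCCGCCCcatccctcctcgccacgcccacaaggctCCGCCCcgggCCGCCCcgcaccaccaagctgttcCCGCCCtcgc
It held 4 GC boxes and was 71.6% G and C, and like the syndecan windows it held none of the other 3 motifs. In the GRCr8 gene order Gpc3 and Gpc4 lie on the X chromosome with 2 protein-coding genes between them, Ftl1l1 and LOC103690904.

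Gpc4, the X-linked neighbour of Gpc3, encodes glypican-4, whose zebrafish counterpart is needed for cell movements in the embryo and for the shape and stacking of cartilage cells. It read 8.84, 9.13, 8.90 and 8.29 in SZ, 8.57, 8.51, 8.44 and 8.63 in IDZ, and 8.49, 8.49, 8.10 and 8.09 in RZ. SZ replicates 1 to 3 were above all other arrays, and SZ replicate 4 was within the RZ range. SZ (8.79 ± 0.35) exceeded RZ (8.29 ± 0.23) 1.41-fold, by 0.50 (SE 0.16, limma adjusted p = 0.033). The call was lost without SZ replicates 1, 2 or 3 in turn (limma adjusted p = 0.077 to 0.099), without RZ replicate 3 or 4 (0.098 and 0.11), when the variance was not moderated (0.085), by the overall test of the 3 zones (0.071), in a fit of only these zones (0.085) and after centring on the median (0.072), and it strengthened to 0.66 without SZ replicate 4 (limma adjusted p = 0.00055). The SZ minus IDZ difference was 0.25 (SE 0.16, limma adjusted p = 0.28), or 0.42 without SZ replicate 4 (limma adjusted p = 0.012). The IDZ minus RZ difference was 0.24 (SE 0.16, limma adjusted p = 0.44), with IDZ the higher in 4 of 4 animal-matched samples, by as little as 0.02 and at most 0.54. The neighbours Gpc3 and Gpc4 did not keep 1 ratio across the zones. The log2 ratio of Gpc3 to Gpc4 was 0.35 to 0.63 in SZ, -0.87 to -0.56 in IDZ and 0.07 to 0.55 in RZ, so IDZ stood below both other zones, which overlapped.

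Gpc2, for glypican-2 (cerebroglycan), known from developing neurons, was in the lower part of the array's range. Its 12 values ran from 5.93 to 6.55, all below 6.81, the median of all values on the arrays. Zone means were 6.20 ± 0.20 in SZ, 6.22 ± 0.15 in IDZ and 6.44 ± 0.11 in RZ. No difference was called, the widest being SZ minus RZ at -0.24 (SE 0.11, limma adjusted p = 0.17), which passed without SZ replicate 4 (-0.31, limma adjusted p = 0.042). Gpc5, a glypican outside the 9 symbols, was also below that median, at 5.47 in SZ, 5.47 in IDZ and 5.65 in RZ with no call.

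**Figure D2:**
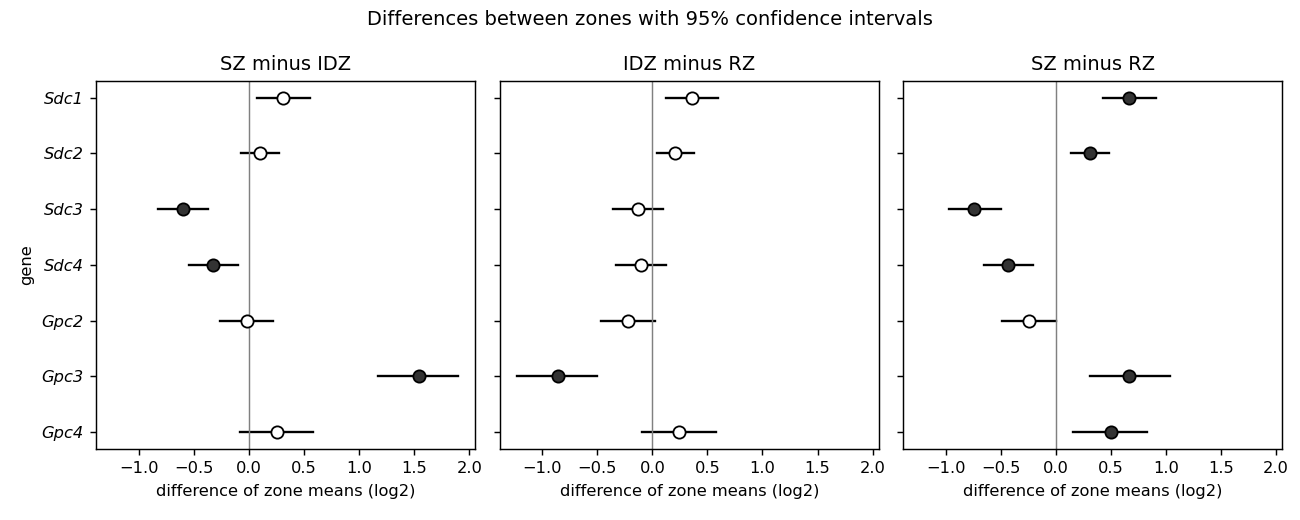
Differences of zone means (log2, horizontal axis) for each measured member in the 3 comparisons, with 95% confidence intervals from the fit over all genes and filled points for calls at an adjusted p under 0.05. Gpc3 between SZ and IDZ, at 1.54, is the only point past 1, and Sdc3 and Sdc4 lie on the opposite side of 0 from Sdc1, Sdc2 and Gpc4 in the SZ minus RZ comparison.

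For each member called at least once, the 3 genes of closest pattern were found by Pearson correlation of log2 values over the 12 arrays, among genes of mean level above the median. The arrays share their zones, so the coefficients are descriptions. Sdc1 was followed most closely by Gal3st4 (0.977), Slc1a3 (0.973) and Zcchc24 (0.971), and Sdc2 by Man1a1 (0.983), Atf7 (0.966) and Tbx15 (0.966). Sdc3 ran with Fgfrl1 (0.982), an FGF receptor that lacks the kinase domain, Tmco3 (0.975) and Papss2 (0.975), which makes the sulfate donor for proteoglycan chains. Sdc4 ran with Igf1r (0.976), the receptor for insulin-like growth factor 1, Scmh1 (0.969) and B4galt3 (0.961). Gpc3 was followed by Crat (0.990), Cdk14 (0.987) and Actn4 (0.985), and Gpc4 by Ncstn (0.963), Lrrc8c (0.951) and Rara (0.948). Actn4, which encodes an actin cross-linker that can bind the syndecan-4 tail, had the same low point in IDZ as Gpc3, with means of 11.13 in SZ, 10.21 in IDZ and 10.78 in RZ.

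The list for chain start, extension and precursor supply was mostly lower in SZ, but its genes of the exostosin family, which includes the chain polymerase subunits, were divided. Of 18 genes listed for the linkage sugar, chain polymerisation and precursor supply, 17 were measured. Between SZ and IDZ, 11 were higher in IDZ and 2 higher in SZ, beside 9.56% and 17% of all genes. The median SZ minus IDZ difference was -0.53 against -0.03 over all genes. Between SZ and RZ, 10 were higher in RZ and 2 higher in SZ, beside 12.2% and 14.5% of all genes (median -0.71 against -0.01). The largest differences toward IDZ were those of Extl1, a glycosyltransferase of the exostosin family (1.41, SE 0.13), Papss2 (1.21, SE 0.13), Slc26a2, a sulfate transporter (1.20, SE 0.13), and Pxylp1, a phosphatase acting on the linkage xylose (1.14, SE 0.18), all with limma adjusted p of 0.00023 or less. Toward RZ they were those of Pxylp1 (1.75), Papss2 (1.59), Slc26a2 (1.48) and the xylose kinase gene Fam20b (1.33). Many of these genes, among them Papss2, Slc26a2, Fam20b and Pxylp1, also serve the chondroitin sulfate chains of aggrecan. The genes that ran the other way, named after their values were seen, were Ext1, a subunit of the chain polymerase (0.87 higher in SZ than in IDZ, SE 0.12, limma adjusted p = 8e-05), and Extl3, which adds the first glucosamine (0.70, SE 0.13, limma adjusted p = 0.00073). Ext2, the partner subunit of Ext1, read 10.31 in SZ, 10.63 in IDZ and 10.64 in RZ and was not called. Extl2, at 8.33, 8.39 and 8.51, was not called either, so Extl1 was the only exostosin family gene called lower in SZ.

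Between IDZ and RZ 1 of these 17 genes was called, beside 3.22% of all genes toward IDZ and 5.58% toward RZ. It was Ugdh, which makes the uronic acid precursor and was higher in RZ by 0.79 (SE 0.12, limma adjusted p = 0.00062). The counts toward RZ and IDZ were 5 and 1 in a fit of these 2 zones alone, whether or not samples of the same animals were paired, 1 and 0 with animal pairs as a random block over all 12 arrays, and 4 and 1 without SZ replicate 4.

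The chain modification genes called in comparisons with SZ were all higher in SZ. Of 18 listed, 10 were measured, and 4 were higher and 0 lower in SZ than in IDZ and likewise than in RZ. The median differences were 0.19 and 0.24, against -0.03 and -0.01 over all genes. Of all genes, 17% were higher and 9.56% lower in SZ than in IDZ, and 14.5% higher and 12.2% lower than in RZ. Sulf2, an extracellular enzyme that removes sulfate from finished chains, averaged 11.32 in SZ, 10.82 in IDZ and 8.98 in RZ, so that SZ exceeded RZ by 2.33 (SE 0.14, limma adjusted p = 1.3e-08) and IDZ exceeded RZ by 1.84 (SE 0.14, limma adjusted p = 1.1e-06). Its relative Sulf1 averaged 9.06, 8.37 and 7.06, with SZ above RZ by 2.00 (SE 0.12) and IDZ above RZ by 1.31 (SE 0.12). Among the 10 measured genes these were the only 2 called between IDZ and RZ, beside 3.22% of all genes toward IDZ and 5.58% toward RZ. The paper names HS6ST2, which was listed but not measured here, among genes higher in IDZ than in RZ. Hs3st1, a sulfotransferase known for the antithrombin-binding motif of heparin, was higher in SZ than in IDZ by 1.06 and than in RZ by 1.33 (SE 0.10 each). Ndst1, which starts sulfation of the chain, was higher in SZ by 0.73 and 0.60 (SE 0.09 each). Of 10 breakdown genes 3 were measured, and Hpse, the heparanase that cuts chains, averaged 7.18 in SZ, 6.49 in IDZ and 6.92 in RZ, with IDZ below SZ by 0.69 (SE 0.11, limma adjusted p = 0.00022) and below RZ by 0.43 (SE 0.11, limma adjusted p = 0.025).

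**Figure D3:**
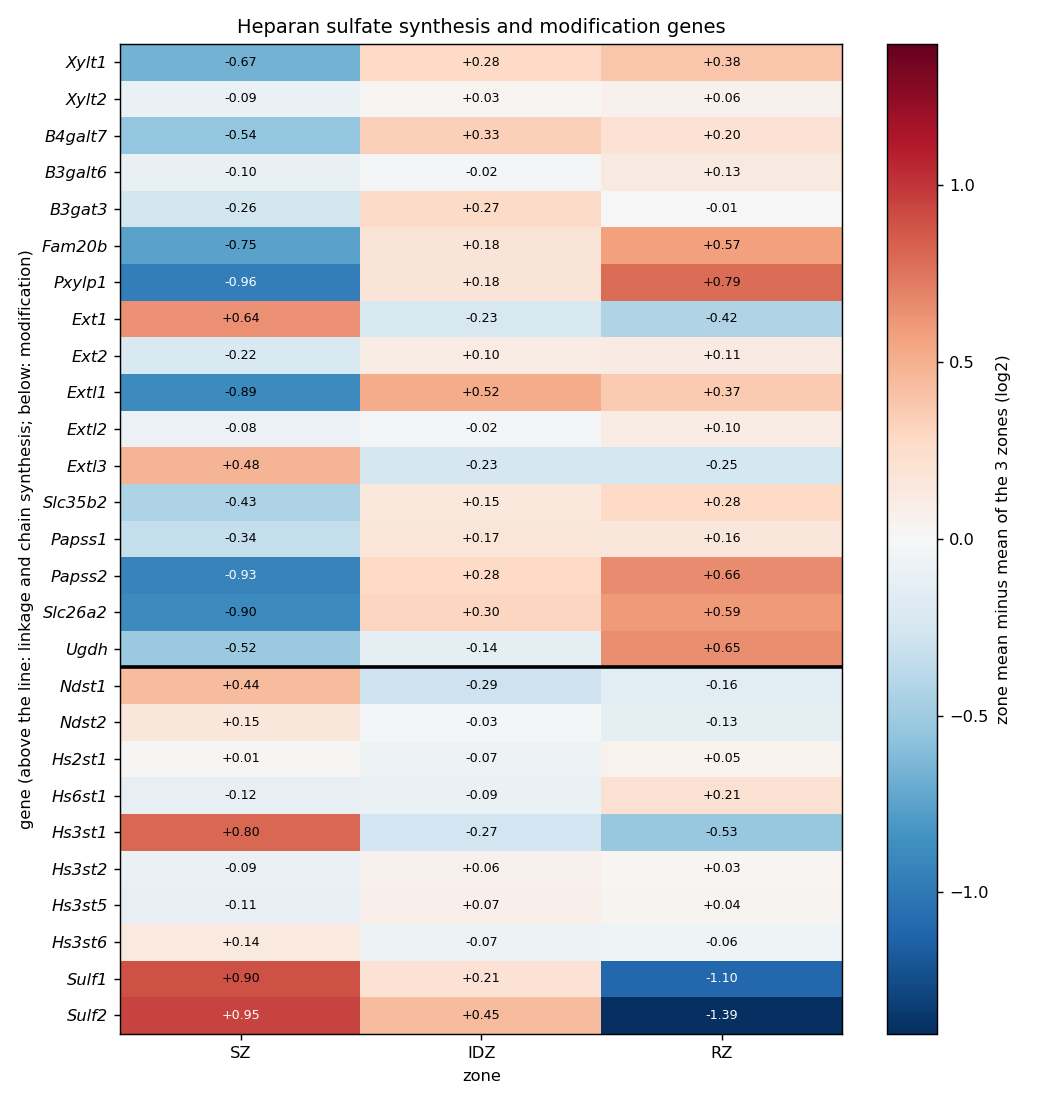
Heat map of the measured genes for heparan sulfate chain synthesis and chain modification (rows) in SZ, IDZ and RZ (columns), coloured by the zone mean minus the mean of the 3 zones on the log2 scale (n = 4 arrays a zone). Most genes of the synthesis list, many of which also serve chondroitin sulfate chains, are low in SZ. Ext1 and Extl3 are the exceptions called toward SZ, and Sulf1 and Sulf2 fall most in RZ.

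Genes listed for shedding or release of the cores were more often higher in SZ. The list holds proteases, lipases and Timp3, a metalloproteinase inhibitor. Of 14 listed, 13 were measured, with 7 above IDZ and 2 below it in SZ (median 0.83 against -0.03 over all genes). Timp3 was among the 7 (0.83, SE 0.19). Beside these counts, 17% and 9.56% of all genes were called. Against RZ, 5 were above and 2 below it (median 0.38 against -0.01), beside 14.5% and 12.2% of all genes, the count toward SZ being 8 without SZ replicate 4. SZ exceeded IDZ by 2.19 for the gelatinase gene Mmp9 (SE 0.42, limma adjusted p = 0.0012), by 1.91 for Mmp2 (SE 0.10), by 1.78 for Adamts1 (SE 0.16) and by 1.54 for Plau, the urokinase (SE 0.13). SZ exceeded RZ by 2.68 for Mmp2, 2.62 for Mmp9 and 1.96 for Adamts1, whereas RZ exceeded SZ by 1.81 for the proprotein convertase gene Pcsk6. Mmp9 is also made by myeloid cells and osteoclasts, whose markers were higher in SZ. Between IDZ and RZ, Mmp2 (0.77) and Pcsk5 (0.42) were higher in IDZ, and Notum was higher in RZ by 0.65 (SE 0.17, limma adjusted p = 0.03). Notum removes the lipid of Wnts and has been reported to release glypicans from their anchor, which was not tested here. It averaged 7.43 in SZ, 6.30 in IDZ and 6.95 in RZ. In a fit of IDZ and RZ alone, with or without pairing by animals, 3 genes of the list were higher in RZ than in IDZ, against 1 with animal pairs as a random block over all 12 arrays and 3 without SZ replicate 4.

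Of 19 cytoplasmic and integrin partners of the syndecans, 17 were measured. Toward SZ, 9 were higher than in IDZ and 8 higher than in RZ, beside 17% and 14.5% of all genes. The median differences were 0.37 and 0.29, against -0.03 and -0.01 over all genes. In each comparison 1 was lower in SZ, beside 9.56% and 12.2% of all genes. The exception was Tiam1, which encodes an activator of the small GTPase Rac and was higher than in SZ by 1.24 in IDZ and by 1.85 in RZ (SE 0.10 each, limma adjusted p = 4.8e-07 and 4.2e-09). Itgb1, the integrin beta-1 chain that works beside syndecan-4 at adhesions, was higher in SZ than in IDZ by 0.99 (SE 0.09), Actn4 by 0.92 (SE 0.11) and the fibronectin receptor chain Itga5 by 0.90 (SE 0.13). Against RZ, SZ was higher by 1.25 for the kinase gene Fyn, by 1.10 for Itga5 and by 0.94 for Itgb1. Between IDZ and RZ, 2 genes were higher in IDZ and 3 higher in RZ, beside 3.22% and 5.58% of all genes. The largest were Tiam1 (0.61), Actn4 (0.57) and Sdcbp (0.44) toward RZ and Fyn (0.46) toward IDZ. With animal pairs as a random block over all 12 arrays, 0 were higher in IDZ. Sdcbp encodes syntenin, which binds the tail of every syndecan, and was also higher in SZ than in IDZ, by 0.82 (SE 0.10, limma adjusted p = 3.4e-05).

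Among 13 other proteoglycans, 11 were measured. Between SZ and IDZ, 3 were called toward SZ and 1 toward IDZ, beside 17% and 9.56% of all genes. Between SZ and RZ, 4 were called toward SZ and 1 toward RZ, beside 14.5% and 12.2%. Between IDZ and RZ, 2 were called toward IDZ and 0 toward RZ, beside 3.22% and 5.58%. With 11 genes, the 1 call toward IDZ and the 1 toward RZ in the comparisons with SZ lay near those shares. Cd44, the hyaluronan receptor, some forms of which carry heparan sulfate, was higher in SZ than in IDZ by 2.27 (SE 0.16) and than in RZ by 2.36. Tgfbr3, which encodes betaglycan, fell in both steps from 9.80 in SZ to 8.84 in IDZ and 8.07 in RZ, and its SZ minus RZ difference was 1.73 (SE 0.13, limma adjusted p = 1.1e-07). Agrn, for agrin, was higher in IDZ by 0.56 and in RZ by 0.62 than in SZ (SE 0.13 each), Nrp1 was higher in SZ than in IDZ by 0.53, and Bgn, which carries chondroitin or dermatan sulfate, was higher in SZ than in RZ by 0.47 and in IDZ than in RZ by 0.37.

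Ligands and receptors that bind the chains were measured for 25 of 32 listed genes. In SZ against IDZ, 12 were higher and 4 lower (median 0.34 against -0.03 over all genes), beside 17% and 9.56% of all genes. In SZ against RZ, 12 were higher and 6 lower (median 0.33 against -0.01), beside 14.5% and 12.2% of all genes. Lpl, a lipase tethered to heparan sulfate, was higher in SZ than in IDZ by 2.57 (SE 0.24), the chemokine gene Cxcl12 by 2.36 (SE 0.15), Ptn (pleiotrophin, a ligand of syndecan-3) by 2.08 (SE 0.13) and Bmp4 by 1.85 (SE 0.13). Ptn thus averaged 11.15 in SZ, 9.07 in IDZ and 8.64 in RZ, while Sdc3 averaged 10.54, 11.14 and 11.27. Against RZ the differences of Lpl, Cxcl12 and Ptn were 2.99, 2.85 and 2.51. The 4 genes lower in SZ than in IDZ, named after their values were seen, were Fgfr3 (by 1.77), Vegfa (1.09), Ptprs (0.64) and Ihh (0.42). Fgfr3 was also lower in SZ than in RZ, by 2.04. Bmp7 was higher in RZ than in SZ by 2.22 and than in IDZ by 2.10 (SE 0.18 each, limma adjusted p = 2.6e-07 and 3.5e-06), and was not called between SZ and IDZ. Between IDZ and RZ, 2 were higher in IDZ and 4 higher in RZ, beside 3.22% and 5.58% of all genes. The largest after Bmp7 were Fgf2 toward IDZ (0.75, SE 0.14) and Wnt4 (0.56, SE 0.15) and Wnt5a (0.53, SE 0.09) toward RZ. The count toward IDZ was 5 in a fit of IDZ and RZ alone, 4 when that fit was paired by animals, 2 with animal pairs as a random block over all 12 arrays and 4 without SZ replicate 4. The endothelial, macrophage, pericyte and fibrous markers were higher in SZ together with these groups, and their part was not tested.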

How the data were processed

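RNA of microdissected cartilage was hybridised to Affymetrix rat whole-transcript arrays. The deposited table holds log2 expression per transcript cluster, which the authors made with robust multiarray averaging (RMA) in Partek Genomics Suite 6.6. RMA adjusts arrays to each other and can compress differences of dim genes. Of 27342 clusters, 15068 carried 1 gene symbol in the platform annotation, 323 several and 11951 none. The brightest cluster with 1 symbol stood for each of 14300 genes, and every measured member had 1 cluster. A listed gene with no such cluster was counted as not measured, which does not mean that the array lacks it. A model with a mean for every zone was fitted with limma 3.58.1 under R 4.3.3, followed by moderated contrasts and Benjamini-Hochberg adjustment over all clusters. The methods' threshold of at least 2-fold served as a stricter call.

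All 9 listed symbols were reported. Of each gene list, up to 4 genes with the largest called difference in a comparison were named. The members and lists were chosen with earlier results of these data known. Lists were described by counts and medians, without set tests. Figures and counts were made in Python 3.11.15 (pandas 2.3.3, matplotlib 3.10.9), and the fit was tested on simulated data.

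Per the labels, each number stands for the same 2 animals in IDZ and in RZ, so these samples are paired. Deviations of paired samples from their zone means had correlations of 0.018, 0.022, 0.027 and 0.205, and the consensus correlation over animal pairs on all 12 arrays was -0.141. In the fit with animal pairs as a random block, this negative value widens the error of a difference within pairs. SZ samples came from single animals 5 to 8 and were not paired by number. The alternatives were 2 replicate blocks, no variance moderation, trended variances, the overall test, fits of only the zones compared, a filter on dim clusters, 3 rescalings, another choice of cluster and leaving out each array.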

Additional observations from a re-analysis of the deposited data

Results flagged for a closer look

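Of 21 sets of 4 arrays (7 genes in 3 zones), 2 held an array far from the other 3 by Dixon's criterion, which chance meets in about 1 of 20 sets. Sdc1 read 9.65 on SZ replicate 4, where the nearest other SZ array read 10.11, a gap of 0.924 of the whole range. The same array stood apart over all genes, and its part in the Sdc1 value was not tested beyond the fits without it. Sdc4 read 10.88 on RZ replicate 4, where the nearest other RZ array read 11.06, a gap of 0.912 of the range.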

How the results depend on the processing

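Under 23 alternatives the 466 recomputed member differences kept direction and side of the threshold in 425 cases, gained a call in 21, lost one in 16 and changed sign in 4. The 4 sign changes were all of the Gpc2 SZ minus IDZ difference, which was 0.02 after a second quantile normalization and -0.09 to 0.07 over the fits without 1 array. Members higher in SZ than IDZ numbered 3 by the overall test of the 3 zones, 2 without dim clusters, 2 after centring on the 75th percentile, 2 after a second quantile normalization, and 1 to 3 without 1 array (3 without SZ replicate 4). Members higher in IDZ than SZ numbered 1 in a fit of only these zones, 1 after centring on the median, and 1 to 2 without 1 array (1 without SZ replicate 1 or any IDZ array). Members higher in IDZ than RZ numbered 1 with the fixed replicate block of IDZ and RZ alone, 0 with the random replicate block by animal pairs, 1 without moderated variances, 1 with trended and robust variances, 2 by the overall test, 1 in a fit of only these zones, 1 without dim clusters, 1 after centring on the 75th percentile, 1 after a second quantile normalization, and 0 to 2 without 1 array (2 without SZ replicate 4). Members higher in RZ than IDZ numbered 3 by the overall test, which does not test a pair of zones. Members higher in SZ than RZ numbered 3 instead of 4 without moderated variances, by the overall test, in a fit of only these zones, after centring on the median and without SZ replicate 1, 2 or 3 or RZ replicate 3 or 4, and members higher in RZ than SZ 3 instead of 2 without SZ replicate 4. Neither replicate block changed another call of a member, the counts at 2-fold moved under none of these alternatives, and the causes of the changes were not tested. With 4 arrays a zone, the number of arrays limits the precision, and most member differences were under 2-fold. Rescaling moved the median of all genes by less than 0.1.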
